A study of Mus musculus with 12 samples.

Results

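The response of mouse embryonic fibroblasts to interferon beta (IFNβ) was compared between cells that lack Sirt2 and cells that carry it. The comparison used all 12 arrays of the series, in 4 groups of 3: Sirt2-/- cells with mouse IFNβ (2500 IU/ml, 4 h), untreated Sirt2-/- cells, Sirt2+/+ cells with the same IFNβ, and untreated Sirt2+/+ cells. For each probe, the response of Sirt2+/+ cells (treated minus untreated) was subtracted from the response of Sirt2-/- cells. The result, called the difference of responses, is a log2 value. Responses were compared with their sign: a negative value is called a smaller response in Sirt2-/- cells and a positive value a larger one. A positive value can thus also come from a fall in Sirt2+/+ cells that Sirt2-/- cells lack. The value equals the genotype difference with IFNβ minus the genotype difference without it. A probe was included if its signal exceeded the array's negative controls (detection p under 0.05) in 1 or more groups on each of the 3 arrays, which held for 17837 of 45281 probes. These probes stand for 9723 named genes. The labels do not say how Sirt2 was deleted, nor whether the 3 samples of a group came from separate embryos or cultures, so the p-values cover the spread of these samples alone, and it may be technical.

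IFNβ is a type I interferon. Bound to its receptor, it activates the kinases JAK1 and TYK2. STAT2 and IRF9 then act in the complex ISGF3, which binds the interferon-stimulated response element (ISRE) in the promoters of antiviral genes. Some chemokine and cytokine genes are controlled by NF-kappaB as well, through kappaB sites. Sirt2 is an NAD-dependent deacetylase found mostly in the cytoplasm.

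The promoters of 5 genes are shown because these genes had some of the clearest differences of responses and hold 1 or both of these elements. Each sequence is the 250 bases before the start of transcription, written 5′ to 3′ on the gene's own strand, from RefSeq (GRCm38.p6). Capitals mark matches, on either strand, to the ISRE core (GAAA, any 2 bases, GAAA) or to the kappaB motif (GGG, any 3 bases, TTCC). Cxcl10 (chr5:92348890-92349139, minus strand) holds 1 ISRE core and 2 kappaB motifs. Apol9b (chr15:77728822-77729071, plus strand) holds 2 overlapping ISRE cores. Ifit1bl1 (chr19:34601969-34602218, minus strand) and Mndal (chr1:173880188-173880437, minus strand) hold 1 ISRE core each. Il6 (chr5:30012864-30013113, plus strand) holds 1 kappaB motif.
Cxcl10: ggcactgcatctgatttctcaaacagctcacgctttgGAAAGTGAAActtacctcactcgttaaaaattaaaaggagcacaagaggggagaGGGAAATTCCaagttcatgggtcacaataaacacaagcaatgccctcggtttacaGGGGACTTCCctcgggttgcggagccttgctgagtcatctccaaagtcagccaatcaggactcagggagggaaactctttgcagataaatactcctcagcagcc
Apol9b: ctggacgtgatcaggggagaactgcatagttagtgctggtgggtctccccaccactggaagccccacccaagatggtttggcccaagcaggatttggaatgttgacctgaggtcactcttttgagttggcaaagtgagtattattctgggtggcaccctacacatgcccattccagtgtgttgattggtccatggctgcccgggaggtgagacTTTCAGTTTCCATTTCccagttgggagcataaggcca
Ifit1bl1: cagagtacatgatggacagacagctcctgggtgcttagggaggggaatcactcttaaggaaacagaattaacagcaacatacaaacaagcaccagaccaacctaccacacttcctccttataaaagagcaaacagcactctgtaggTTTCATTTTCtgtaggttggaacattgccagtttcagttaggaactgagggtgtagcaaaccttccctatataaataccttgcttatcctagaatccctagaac
Mndal: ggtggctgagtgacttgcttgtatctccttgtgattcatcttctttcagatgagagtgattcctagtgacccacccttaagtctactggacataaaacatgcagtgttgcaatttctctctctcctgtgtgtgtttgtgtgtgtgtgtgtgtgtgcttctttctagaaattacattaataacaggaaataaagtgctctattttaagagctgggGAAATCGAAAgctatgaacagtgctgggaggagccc
Il6: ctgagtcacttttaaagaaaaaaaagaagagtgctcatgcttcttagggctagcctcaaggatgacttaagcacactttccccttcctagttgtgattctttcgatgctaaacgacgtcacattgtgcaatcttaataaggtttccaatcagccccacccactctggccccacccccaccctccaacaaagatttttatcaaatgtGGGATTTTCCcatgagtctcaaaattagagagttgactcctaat

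The ISRE core occurred in 7 of 34 promoters (20.6%) of genes with a smaller response in Sirt2-/- cells. It occurred in 3.35% of the 7909 promoters of tested genes and in 3.46% of all 27025 promoters of the RefSeq table. Of 27 promoters of tested antiviral genes, which IFNβ induces, 8 (29.6%) held it. All genes with a smaller response in Sirt2-/- cells were induced in Sirt2+/+ cells, and their shares were not compared with those of all induced genes. The kappaB motif occurred in 5 of the 34 genes with a smaller response (14.7%), against 5.92% of tested genes and 14.8% of the antiviral genes. Neither motif occurred in the 10 genes with a promoter and a larger response in Sirt2-/- cells. A match is a description of the letters in this window and shows no binding.

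Sirt2 itself had log2 levels of 5.86, 6.37 and 6.15 in treated Sirt2-/- cells and of 6.04, 6.66 and 6.61 in untreated Sirt2-/- cells. In Sirt2+/+ cells the levels were 9.23, 8.76 and 8.97 with IFNβ and 8.72, 8.89 and 8.94 without it. The Sirt2-/- arrays were thus lower than all Sirt2+/+ arrays in both conditions, and the difference of responses of Sirt2 was -0.45 ± 0.25 (SE; limma adjusted p = 0.824). Of 11 fibroblast markers all 11 were tested, between 9 and 11 were detected on an array, and the difference of responses was called for none. Leukocyte, endothelial, epithelial, muscle and neural lists had 1, 1, 3, 1 and 3 tested members, none called. The level itself differed: of the 11 fibroblast markers 8 were called lower in untreated Sirt2-/- cells, and 7 lower and 1 higher in treated ones. Over all 12128 genes and unnamed probes, 2893 were lower and 3211 higher when untreated, and 2772 lower and 3241 higher when treated. What this means for the kind of cell was not tested.

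Untreated Sirt2-/- arrays 2 and 3 stood apart from array 1, and the main results below are given with all 12 arrays and without these 2. A set of 31 genes, chosen for a high level in Sirt2+/+ cells and a mean log2 level under 6 in treated Sirt2-/- cells, had 6, 30 and 31 members detected on untreated Sirt2-/- arrays 1, 2 and 3. On treated Sirt2-/- arrays 7, 20 and 22 of them were detected, and on each Sirt2+/+ array all 31. The median log2 level of these 31 genes was 4.565, 6.401 and 5.998 on untreated Sirt2-/- arrays 1, 2 and 3. It was 4.651, 5.465 and 5.241 on treated Sirt2-/- arrays and 9.654 to 9.856 on Sirt2+/+ arrays. Untreated Sirt2-/- arrays 2 and 3 were thus far below the Sirt2+/+ level of these genes, although nearly all were detected there. The mean log2 level of 38 antiviral genes, which IFNβ induces, was 6.29, 8.12 and 8.60 on untreated Sirt2-/- arrays 1, 2 and 3, against 6.24 to 6.61 on untreated Sirt2+/+ arrays. With IFNβ it was 10.49 to 10.82 on Sirt2-/- arrays and 10.64 to 10.74 on Sirt2+/+ arrays. The part of the 2 arrays in each result was not tested beyond leaving them out. Which of the 3 untreated Sirt2-/- arrays gives the truer starting level was not tested either, and counts without array 1 instead are given further below. All treated Sirt2-/- arrays were kept in both fits. Without them, the untreated Sirt2-/- group has 1 array, whose spread is taken to be that of the other groups.

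The difference of responses was called (limma adjusted p under 0.05 over all 17837 probes) for 72 probes, which is 0.404% of those tested. It was negative for 54 of them (0.303%) and positive for 18 (0.101%). At an unadjusted p under 0.05 there were 1276 probes. Among the 54, the median difference of responses was -1.55, with a median response of 0.38 in Sirt2-/- cells and 1.98 in Sirt2+/+ cells. Among the 18, the median was 1.18, with median responses of 1.14 in Sirt2-/- cells and -0.06 in Sirt2+/+ cells. Over all probes the median difference was 0.01, and the 5th and 95th percentiles were -0.42 and 0.39. Without untreated Sirt2-/- arrays 2 and 3, 42 probes were called (0.235%), 24 negative (0.135%) and 18 positive. Of these, 30 were among the 72, and all 72 kept their sign.

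To separate a different starting level from a different treated level, each called probe was classed by which genotype difference was itself called (limma adjusted p under 0.05). The classes use the same arrays as the call, so their sizes are a description. The untreated genotype difference was called for 48.9% of all tested probes and the treated one for 48.3%. Of the 54 probes with a smaller response in Sirt2-/- cells, 5 differed between genotypes only when untreated, 28 only when treated and 21 in both conditions. Of the 18 with a larger response, the numbers were 2, 3 and 13. Without untreated Sirt2-/- arrays 2 and 3, the 24 probes with a smaller response were classed as 3, 14 and 7, and the 18 with a larger response as 2, 8 and 8. Cxcl10, Apol9a, Ch25h and Pstpip1 were then classed as different in both conditions, and Tgtp1, H2-Q6 and Itgb6 as different only when treated. Among all tested probes, 9.63% differed only when untreated, 9% only when treated and 39.3% in both conditions.

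**Figure D1:**
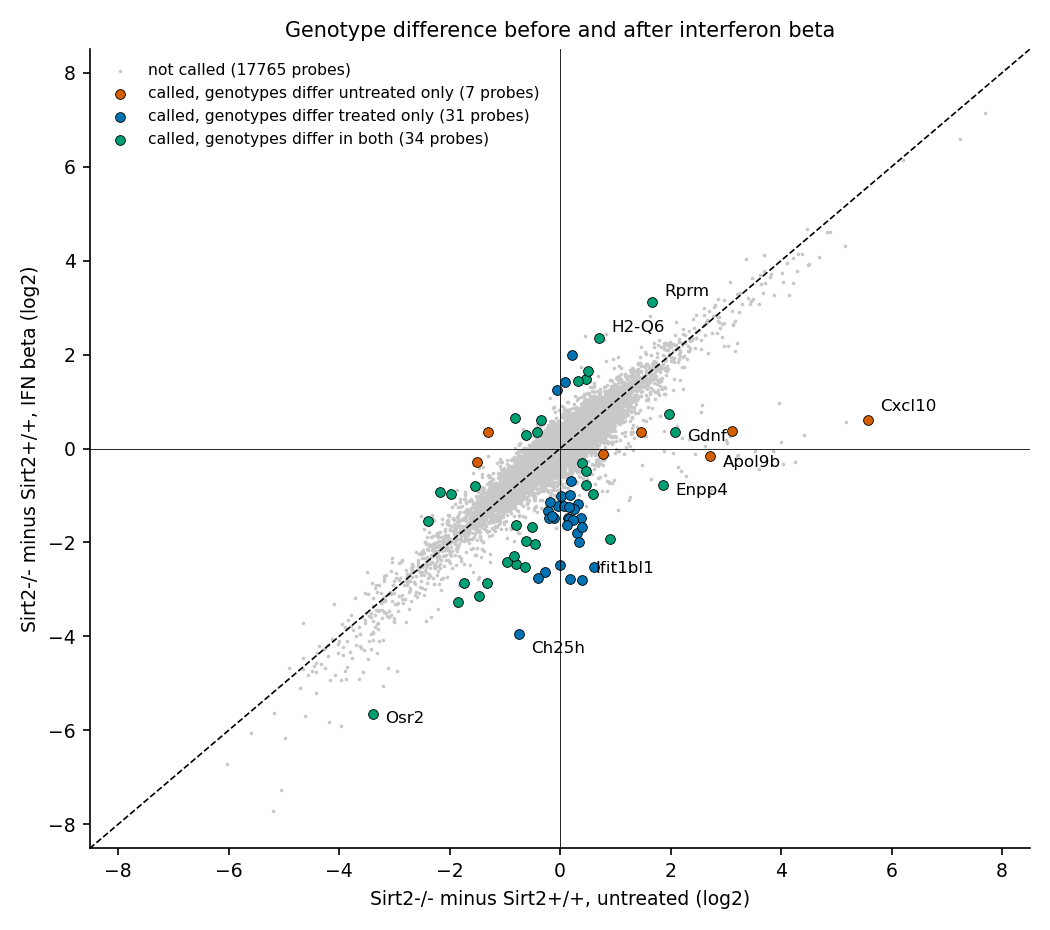
Each point is 1 tested probe, placed by its genotype difference (Sirt2-/- minus Sirt2+/+, log2) in untreated cells on the horizontal axis and in treated cells on the vertical axis, each over 3 arrays a group. On the diagonal both are equal and the difference of responses is 0; the called probes are coloured by class, and Cxcl10 lies far to the right at a treated difference of 0.62.

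The smaller response of 5 genes went with a higher starting level in Sirt2-/- cells. They were Cxcl10, a chemokine that attracts T cells, Apol9a and Apol9b, apolipoproteins of the L family, Zfp296, a zinc finger protein, and Nfkbiz, a nuclear regulator of NF-kappaB. Cxcl10 had log2 levels of 14.60, 14.30 and 14.37 in treated Sirt2-/- cells, against 13.85, 13.80 and 13.77 in treated Sirt2+/+ cells. Untreated, it had 8.47, 10.53 and 11.19 in Sirt2-/- cells and 4.46, 4.52 and 4.51 in Sirt2+/+ cells, where it was detected on no array. The groups overlapped in neither condition, although the treated difference (0.62) did not pass the test (limma adjusted p = 0.29). Without untreated Sirt2-/- arrays 2 and 3 the treated difference of Cxcl10, and that of Apol9a, was called as well. The induction by IFNβ was 4.36 on the log2 scale in Sirt2-/- cells and at least 471-fold in Sirt2+/+ cells. Between genotypes the responses differed by -4.95 ± 0.65 (SE, n = 3 a group; limma adjusted p = 0.00421), and -3.36 (limma adjusted p = 9.3e-06) without untreated Sirt2-/- arrays 2 and 3. A second Cxcl10 probe passed in neither fit, with -4.62 (limma adjusted p = 0.20) and, without the 2 arrays, -1.60 (limma adjusted p = 0.447). On untreated Sirt2-/- array 1 alone Cxcl10, read by the first probe, was 3.98 higher (log2) than the mean of untreated Sirt2+/+ cells.

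Apol9b reached 10.59, 10.17 and 10.19 in treated Sirt2-/- cells and 10.61, 10.30 and 10.55 in treated Sirt2+/+ cells, which overlapped. In untreated cells it had 7.16, 8.04 and 8.22 in Sirt2-/- and 4.92, 5.14 and 5.19 in Sirt2+/+, with no overlap. The responses differed by -2.89 ± 0.32 (limma adjusted p = 9.44e-04) and -2.24 without the 2 arrays (limma adjusted p = 0.00233). Apol9a had -2.74 ± 0.41 (limma adjusted p = 0.00832), and -1.81 without the 2 arrays (limma adjusted p = 0.00435). The 2 genes are near-identical copies, so their signals may not be separate. Nfkbiz had 7.89, 7.84 and 7.80 in untreated Sirt2-/- cells, above the 7.27, 6.87 and 7.06 of untreated Sirt2+/+ cells. With IFNβ it had 8.13, 7.84 and 7.81 in Sirt2-/- cells and 8.0, 8.01 and 8.13 in Sirt2+/+ cells. The 3 untreated Sirt2-/- arrays had like values here, and the difference of responses was -0.90 ± 0.17 (limma adjusted p = 0.0447) with all arrays and -0.94 without the 2 arrays, where it did not pass (limma adjusted p = 0.243). Zfp296 had -1.11 ± 0.22 (limma adjusted p = 0.0475) and -0.90 without the 2 arrays (limma adjusted p = 0.416); its brightest probe had -0.94 and did not pass (limma adjusted p = 0.21). Of the 4 of these genes with a RefSeq promoter, 3 hold the ISRE core, among them Cxcl10 and Apol9b, whose sequences are shown above.

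**Figure D2:**
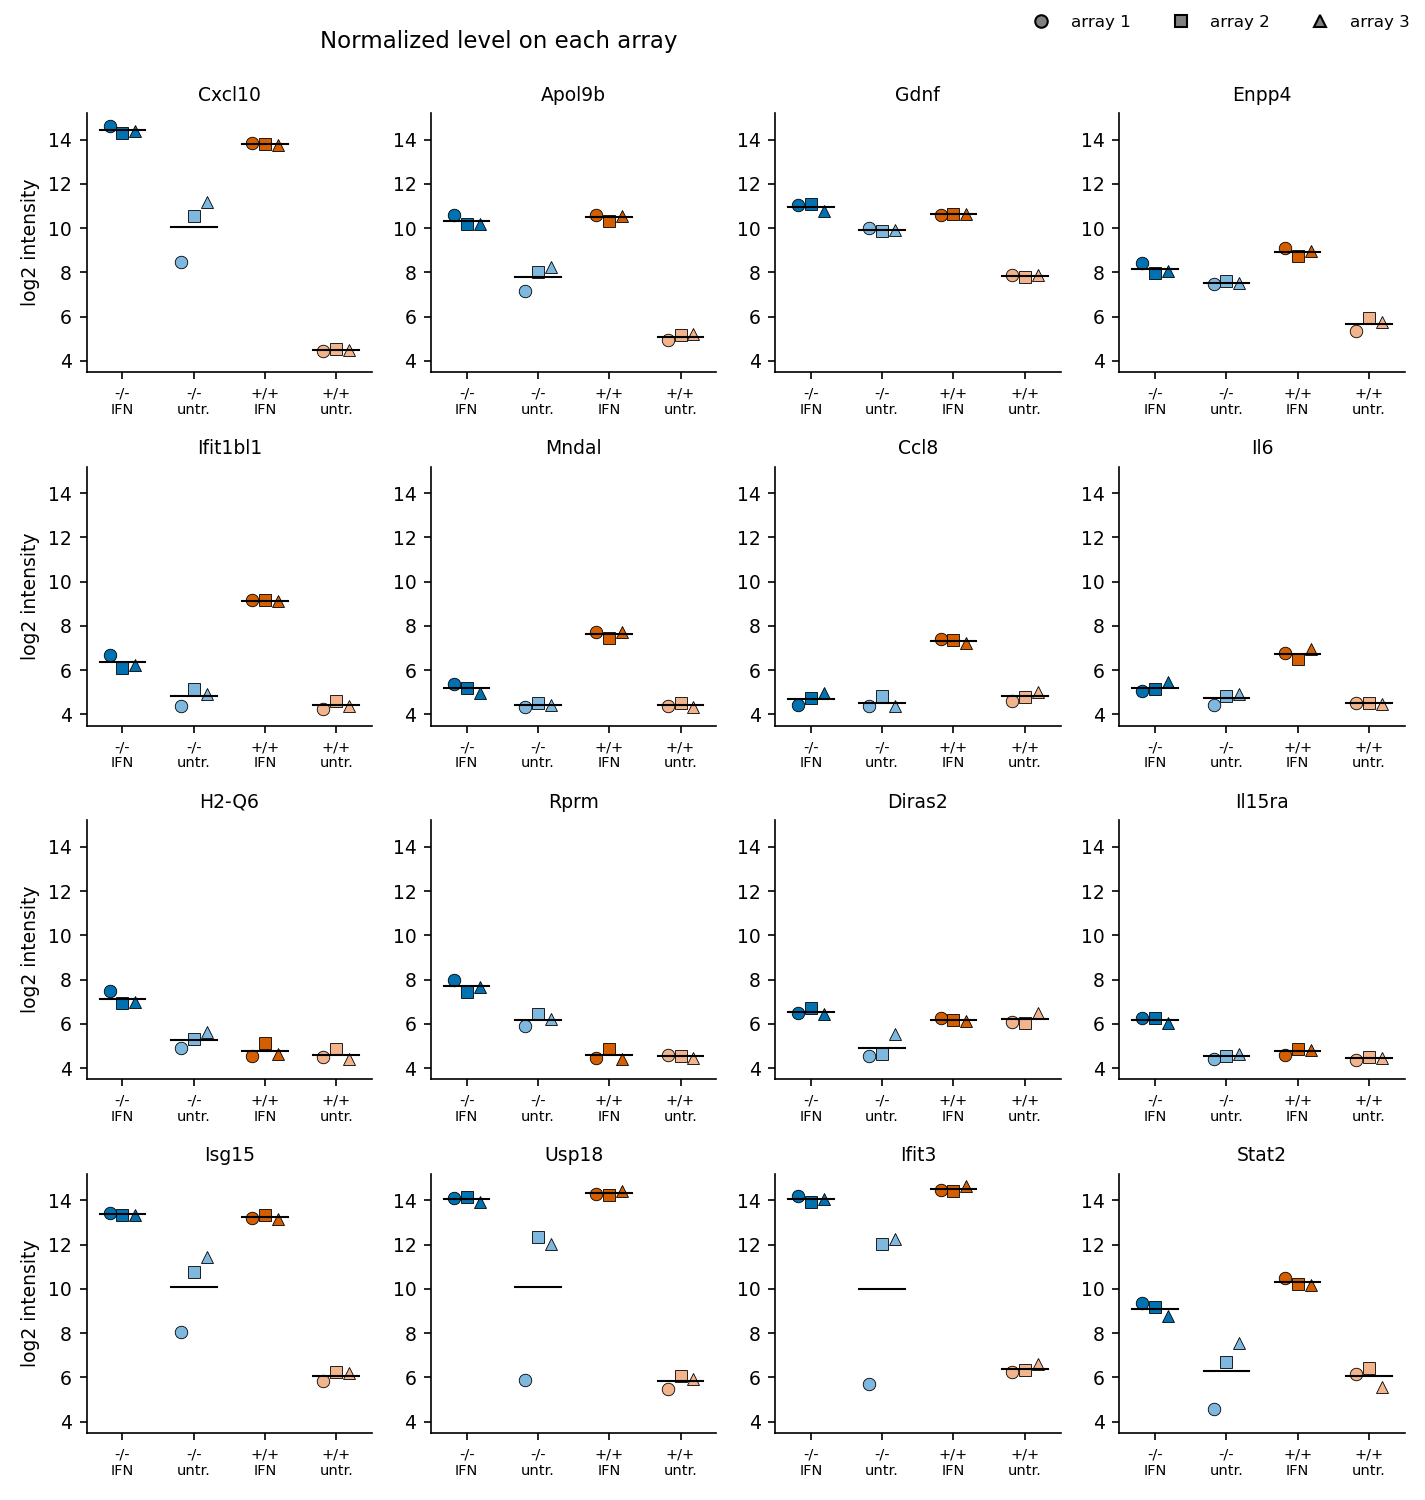
Log2 level of single genes on each of the 12 arrays (vertical axis), by group from left to right, with the mean of each group as a short line and the marker shape giving the array number. Cxcl10 and Apol9b start higher in untreated Sirt2-/- cells, while Ifit1bl1, Mndal, Ccl8 and Il6 reach lower levels in treated Sirt2-/- cells than in treated Sirt2+/+ cells.

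A lower treated level with no called difference before treatment was found for 28 probes, which stand for 19 named genes. Both untreated groups were undetected for 13 of these probes, and treated Sirt2-/- cells were undetected for 6. Among them were relatives of interferon-induced families (Ifit1bl1, Mndal, Ifi207), chemokines (Ccl8, Ccl11, Ccl12), the cytokine Il6 and proteins of innate defence (Ch25h, Casp4, Mpeg1, Pstpip1, Ccrl2). In this class Mndal, Ccl8, Ccl11, Ccl12, Lgi2, Map3k8 and F8 met the detection rule only through treated Sirt2+/+ cells, where they were high. For these genes the rule itself favoured a smaller response in Sirt2-/- cells, and their p-values do not allow for this. Ifit1bl1, a copy in the Ifit family of antiviral RNA-binding proteins, had 6.70, 6.11 and 6.25 in treated Sirt2-/- cells and 9.16, 9.15 and 9.12 in treated Sirt2+/+ cells. Untreated, it had 4.36, 5.17 and 4.93 in Sirt2-/- cells and 4.25, 4.61 and 4.38 in Sirt2+/+ cells. The treated groups were far apart, while the untreated ones overlapped. Its difference of responses was -3.20 ± 0.27 (limma adjusted p = 1.04e-04), and -2.74 without untreated Sirt2-/- arrays 2 and 3 (limma adjusted p = 0.001).

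Mndal, a member of the interferon-inducible Ifi200 family, had 5.39, 5.18 and 4.95 in treated Sirt2-/- cells and 7.72, 7.47 and 7.74 in treated Sirt2+/+ cells. In untreated cells it had 4.32, 4.52 and 4.40 in Sirt2-/- and 4.40, 4.50 and 4.34 in Sirt2+/+, with no array detected in either group. Mndal's responses differed by -2.47 ± 0.18 (limma adjusted p = 4.51e-05), and -2.38 without the 2 arrays (limma adjusted p = 0.001). The induction was at least 1.19-fold in Sirt2-/- cells and at least 6.57-fold in Sirt2+/+ cells. Ifi207, of the same family, had -1.85 ± 0.32 (limma adjusted p = 0.023); without the 2 arrays it had -1.31 and did not pass (limma adjusted p = 0.21). Genes of this family are close copies of each other, so these 2 results are uncertain for the single gene.

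Ccl8, a chemokine for monocytes, had 4.42, 4.73 and 4.97 in treated Sirt2-/- cells and 7.43, 7.35 and 7.24 in treated Sirt2+/+ cells. Untreated levels were 4.39, 4.83 and 4.39 in Sirt2-/- cells and 4.61, 4.80 and 5.03 in Sirt2+/+ cells, which overlapped. The treated Sirt2-/- arrays lay in the range of the untreated arrays of both genotypes, and the difference of responses was -2.36 ± 0.23 (limma adjusted p = 2.88e-04). Ccl11 (eotaxin), which attracts eosinophils, had 4.39, 4.43 and 4.44 in treated Sirt2-/- cells, where it was detected on no array, and 6.12, 5.80 and 5.86 in treated Sirt2+/+ cells. Its difference of responses was -1.66 ± 0.15 (limma adjusted p = 1.84e-04). Ccl12, another monocyte chemokine, had -1.02 ± 0.18 (limma adjusted p = 0.0292). Without the 2 arrays Ccl8 (-2.22) and Ccl11 (-1.64) passed (limma adjusted p = 0.00281 and 0.00392), and Ccl12 (-0.93) did not (limma adjusted p = 0.305). A second Ccl11 probe had -0.74 and did not pass (limma adjusted p = 0.0939).

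Il6, a cytokine of the acute-phase response, had 5.04, 5.13 and 5.47 in treated Sirt2-/- cells and 6.77, 6.53 and 6.94 in treated Sirt2+/+ cells. Untreated, it had 4.42, 4.84 and 4.93 in Sirt2-/- cells and 4.52, 4.51 and 4.47 in Sirt2+/+ cells, and was detected on none of these 6 arrays. The induction was at least 1.23-fold in Sirt2-/- cells and at least 3.52-fold in Sirt2+/+ cells, and the difference of responses was -1.76 ± 0.22 (limma adjusted p = 0.00288). Ch25h, which makes 25-hydroxycholesterol from cholesterol, had 6.55, 6.55 and 6.59 in treated Sirt2-/- cells and 10.55, 10.42 and 10.58 in treated Sirt2+/+ cells. Its untreated levels were 4.41, 6.34 and 6.09 in Sirt2-/- cells and 6.06, 6.51 and 6.51 in Sirt2+/+ cells. Untreated Sirt2-/- array 1 was thus 1.95 below the mean of untreated Sirt2+/+ cells, and the other 2 arrays were near it. The difference of responses was -3.20 ± 0.50 (limma adjusted p = 0.0103) with all arrays and -2.0 without the 2 arrays (limma adjusted p = 0.00256). Casp4, the sensor of the non-canonical inflammasome, had -1.62 ± 0.18 (limma adjusted p = 0.00123), and Mpeg1, a pore-forming protein, had -2.05 ± 0.28 (limma adjusted p = 0.00445). Pstpip1, an adaptor that binds the inflammasome protein pyrin, had -2.36 ± 0.31 (limma adjusted p = 0.00412), and Ccrl2, an atypical chemokine receptor, had -2.95 ± 0.31 (limma adjusted p = 5.93e-04). These 4 genes and Il6 also passed without the 2 arrays, with values between -1.39 and -2.58; a second Casp4 probe passed with all arrays alone (limma adjusted p = 0.00835 and, without the 2 arrays, 0.108).

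The other named genes of this class had differences of responses between -1.51 and -0.90. Among them Lgi2, a secreted leucine-rich repeat protein, had -1.36 with all arrays (limma adjusted p = 0.00835) and -1.47 without the 2 arrays (limma adjusted p = 0.0366). Map3k8, a kinase upstream of ERK, had -1.27 (limma adjusted p = 0.00757), and F8, which encodes coagulation factor VIII, had -0.95 (limma adjusted p = 0.00835). Neither of them was detected in treated Sirt2-/- cells, so their folds are lower bounds: the treated level was at least 2.13-fold lower for Map3k8 and at least 1.51-fold lower for F8. Without the 2 arrays neither passed (limma adjusted p = 0.0838 and 0.114).

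In 21 probes with a smaller response the genotypes differed in both conditions, and several kinds of gene were among them. For Enpp4, an ectoenzyme that cleaves nucleotides, the order of the genotypes turned with treatment. It had 8.44, 7.98 and 8.07 in treated Sirt2-/- cells and 9.09, 8.76 and 8.94 in treated Sirt2+/+ cells. Untreated, it had 7.49, 7.59 and 7.5 in Sirt2-/- cells, above 5.35, 5.91 and 5.74 in Sirt2+/+ cells. Its responses differed by -2.62 ± 0.22 (limma adjusted p = 1.04e-04) and -2.59 without the 2 arrays (limma adjusted p = 0.00233). Gdnf, a neurotrophic factor, had 11.06, 11.08 and 10.76 in treated Sirt2-/- cells and 10.59, 10.64 and 10.65 in treated Sirt2+/+ cells. It had 9.98, 9.86 and 9.92 in untreated Sirt2-/- cells and 7.87, 7.79 and 7.88 in untreated Sirt2+/+ cells, so Sirt2-/- cells were higher throughout. For Gdnf the difference of responses was -1.73 ± 0.15 (limma adjusted p = 1.04e-04) and -1.79 without the 2 arrays (limma adjusted p = 0.00233). Bid, a pro-apoptotic protein of the BCL2 family, had the same order, with genotype differences of 0.74 when treated and 1.97 when untreated. The responses of Bid differed by -1.23 with all arrays (limma adjusted p = 0.00696) and by -1.18 without the 2 arrays, where the call was lost (limma adjusted p = 0.0681).

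The IFNβ-inducible GTPase Tgtp1 had 8.37, 7.96 and 7.70 in treated Sirt2-/- cells and 10.10, 9.82 and 9.92 in treated Sirt2+/+ cells. Its untreated levels were 4.45, 6.10 and 5.79 in Sirt2-/- cells and 4.72, 4.58 and 4.30 in Sirt2+/+ cells, so untreated Sirt2-/- arrays 2 and 3 were high and array 1 was not. Tgtp1's responses differed by -2.84 ± 0.45 (limma adjusted p = 0.0115), and -1.85 (limma adjusted p = 0.025) without the 2 arrays. Tgtp1 has a near-identical copy, Tgtp2, which may share its signal. Tlr3, the endosomal receptor for double-stranded RNA, had genotype differences of -0.98 when treated and 0.60 when untreated, and a difference of responses of -1.58 ± 0.30 (limma adjusted p = 0.0447). Without the 2 arrays it was -0.96 and did not pass (limma adjusted p = 0.184). The transcription factors Osr2, active in limb and palate development, and Hoxd4, of the HOX family, were lower in Sirt2-/- cells throughout. Osr2 had genotype differences of -5.66 when treated and -3.39 when untreated, and a response of 1.65 in Sirt2+/+ cells. A second Osr2 probe passed in neither fit (limma adjusted p = 0.419 with all arrays). Hoxd4 was undetected in Sirt2-/- cells in both conditions, and was at least 6.02-fold lower there with IFNβ and at least 2.26-fold lower without it. Mmp10, a matrix metalloproteinase, was at least 7.3-fold lower in treated Sirt2-/- cells, where it was not detected. The differences of responses of Osr2 (-2.27), Hoxd4 (-1.67) and Mmp10 (-1.42) were called with all arrays and not without the 2 arrays (limma adjusted p = 0.108, 0.0716 and 0.161).

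A positive difference of responses was called for 18 probes, 16 named genes among them. Of the 18, 12 were called higher with IFNβ in Sirt2-/- cells. The called probes of H2-Q6, H2-Q8, Il15ra, Itgb6, Krt16 and Ccl4 met the detection rule only through treated Sirt2-/- cells. For these the rule itself favoured a larger response there, and their p-values do not allow for this. H2-Q6, a class Ib MHC gene, had 7.46, 6.95 and 6.98 in treated Sirt2-/- cells and 4.57, 5.12 and 4.65 in treated Sirt2+/+ cells. Untreated, it had 4.91, 5.34 and 5.61 in Sirt2-/- cells and 4.49, 4.86 and 4.39 in Sirt2+/+ cells. The difference of responses was 1.64 ± 0.29 (limma adjusted p = 0.0274), and 2.02 without the 2 arrays (limma adjusted p = 0.025). A second H2-Q6 probe had 0.86 and did not pass (limma adjusted p = 0.286). A probe of H2-Q8 had 1.76 ± 0.27 (limma adjusted p = 0.00873), while the brightest probe of that gene had 0.90 and did not pass (limma adjusted p = 0.24); without the 2 arrays the first passed (1.96, limma adjusted p = 0.0339) and the brightest did not. The H2-Q genes are near-identical in sequence, so a probe may read several, and strains can differ in them; the labels do not name the genetic background of the cells.

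Rprm, a p53-inducible inhibitor of the cell cycle, had 7.98, 7.43 and 7.68 in treated Sirt2-/- cells and 5.91, 6.44 and 6.21 in untreated Sirt2-/- cells. It was detected on no Sirt2+/+ array, and the difference of responses was 1.46 ± 0.24 (limma adjusted p = 0.0125). Cables1, a protein that binds CDK5, had 7.26, 7.01 and 7.08 in treated Sirt2-/- cells and 5.84, 5.72 and 6.06 in treated Sirt2+/+ cells. Its untreated levels overlapped, with 5.16, 5.31 and 5.56 in Sirt2-/- cells and 5.14, 5.42 and 5.63 in Sirt2+/+ cells, and the difference of responses was 1.30 ± 0.21 (limma adjusted p = 0.0124). Diras2, a small GTPase, had 6.48, 6.71 and 6.43 in treated Sirt2-/- cells and 6.25, 6.18 and 6.12 in treated Sirt2+/+ cells. Without IFNβ it had 4.56, 4.64 and 5.52 in Sirt2-/- cells and 6.09, 6.04 and 6.50 in Sirt2+/+ cells, so this difference of 1.66 ± 0.30 (limma adjusted p = 0.0277) went with a lower starting level. Rprm, Cables1 and Diras2 passed without the 2 arrays as well, with 1.73, 1.48 and 2.0. A probe of Il15ra, the IL-15 receptor alpha chain, had 1.34 ± 0.16 (limma adjusted p = 0.00229), and 1.46 without the 2 arrays (limma adjusted p = 0.0109), but the other 3 probes of the gene passed in neither fit, the brightest with 0.24 (limma adjusted p = 0.99).

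In other genes of this kind the level of Sirt2+/+ cells was lower with IFNβ, and Sirt2-/- cells were low from the start. Slc40a1, the iron exporter ferroportin, had 4.28, 4.47 and 4.48 in treated Sirt2-/- cells and 4.45, 4.42 and 4.48 in untreated Sirt2-/- cells, and was undetected in both. It had 5.25, 5.18 and 5.70 in treated Sirt2+/+ cells and 6.42, 6.49 and 6.37 in untreated Sirt2+/+ cells. The responses were -0.04 in Sirt2-/- cells, at background, and -1.05 in Sirt2+/+ cells, and the difference of responses was 1.01 ± 0.18 (limma adjusted p = 0.0292). Gna14, a G protein alpha subunit, was likewise undetected in untreated Sirt2-/- cells, with responses of 0.11 in Sirt2-/- cells and -1.13 in Sirt2+/+ cells. Neither Slc40a1 nor Gna14 passed without the 2 arrays (limma adjusted p = 0.231 and 0.224).

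**Figure D3:**
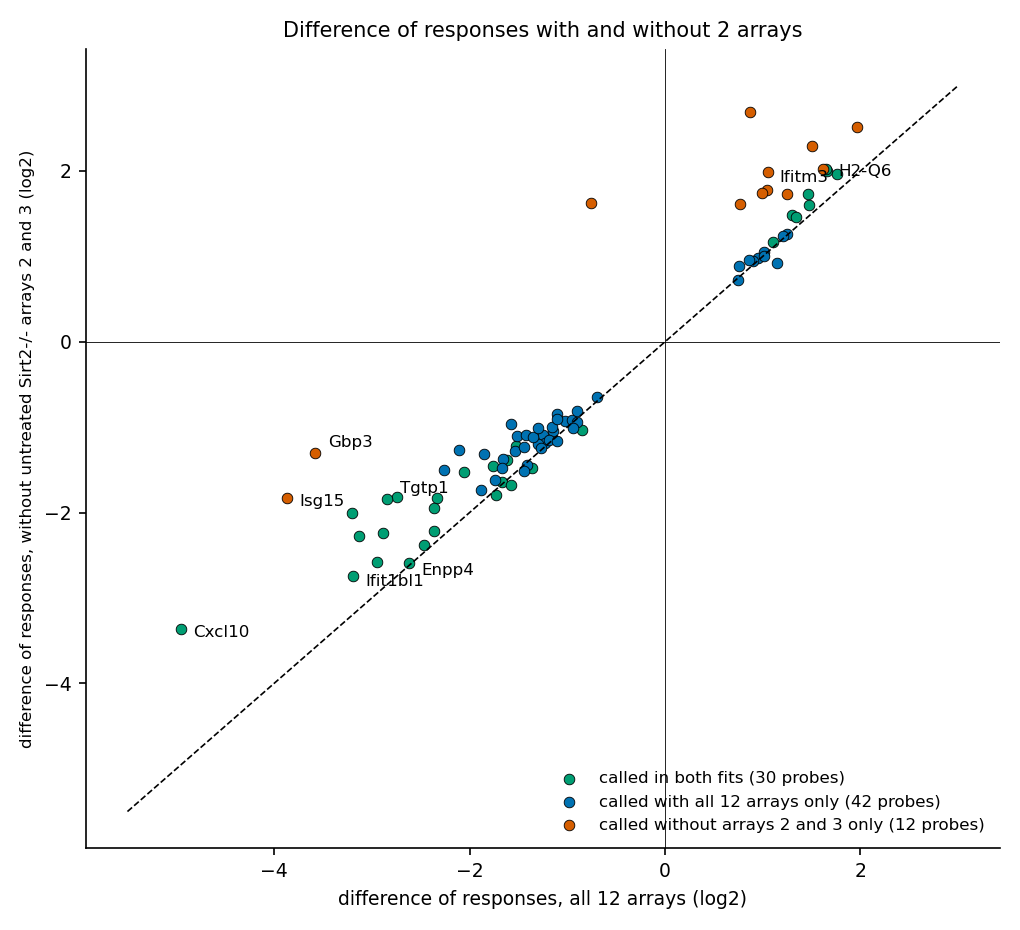
Difference of responses (log2, Sirt2-/- response minus Sirt2+/+ response) of each probe called in either fit, with all 12 arrays on the horizontal axis and without untreated Sirt2-/- arrays 2 and 3 on the vertical axis. Colours give the fit that called it: 30 probes in both, 42 with all arrays only and 12 without the 2 arrays only; the 72 called with all arrays keep their sign, and the dashed line marks equal values.

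The lists of interferon genes were compared with all genes by their counts and medians, with the brightest kept probe for each gene. Over all 12128 genes and unnamed probes, 58 were called (0.478%), 46 with a smaller response in Sirt2-/- cells (0.379%) and 12 with a larger one (0.0989%), and the median difference of responses was 0.01. None of the 38 antiviral genes tested was called. An unadjusted p under 0.05 was found for 875 of all 12128 genes and unnamed probes and for 21 of these 38. Their median was -1.05 with all 12 arrays and -0.00 without untreated Sirt2-/- arrays 2 and 3, where 3 were called (Isg15 lower, Ifitm1 and Ifitm3 higher), against 0.297% of all genes. With 1 untreated Sirt2-/- array at a time it was -0.00 for array 1, -1.25 for array 2 and -1.91 for array 3. Negative values were found for 33 of the 38 genes with all arrays and for 19 without the 2 arrays. The median without them thus covers values of both signs, such as -1.83 for Isg15 and 1.99 for Ifitm1. Arrays 2 and 3 were set apart partly by the level of these same genes. The shift of the median without them follows from that choice and is no separate result. The GTPases and interferon regulatory factors below were also high on these arrays. Their median distance from the untreated Sirt2+/+ mean was 2.20 and 1.13 on array 2 and 1.36 and 1.43 on array 3. On array 1 it was -0.09 and -0.06. The shifts of their median difference of responses, given next, are thus no separate results either. The 11 interferon-inducible GTPases had a median of -1.76 with all arrays, with Tgtp1 called, and a median of -0.16 without the 2 arrays, with Tgtp1 and Gbp3 called. For the 6 interferon regulatory factors tested the median was -0.71, and 0.00 without the 2 arrays, with none called in either fit.

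**Figure D4:**
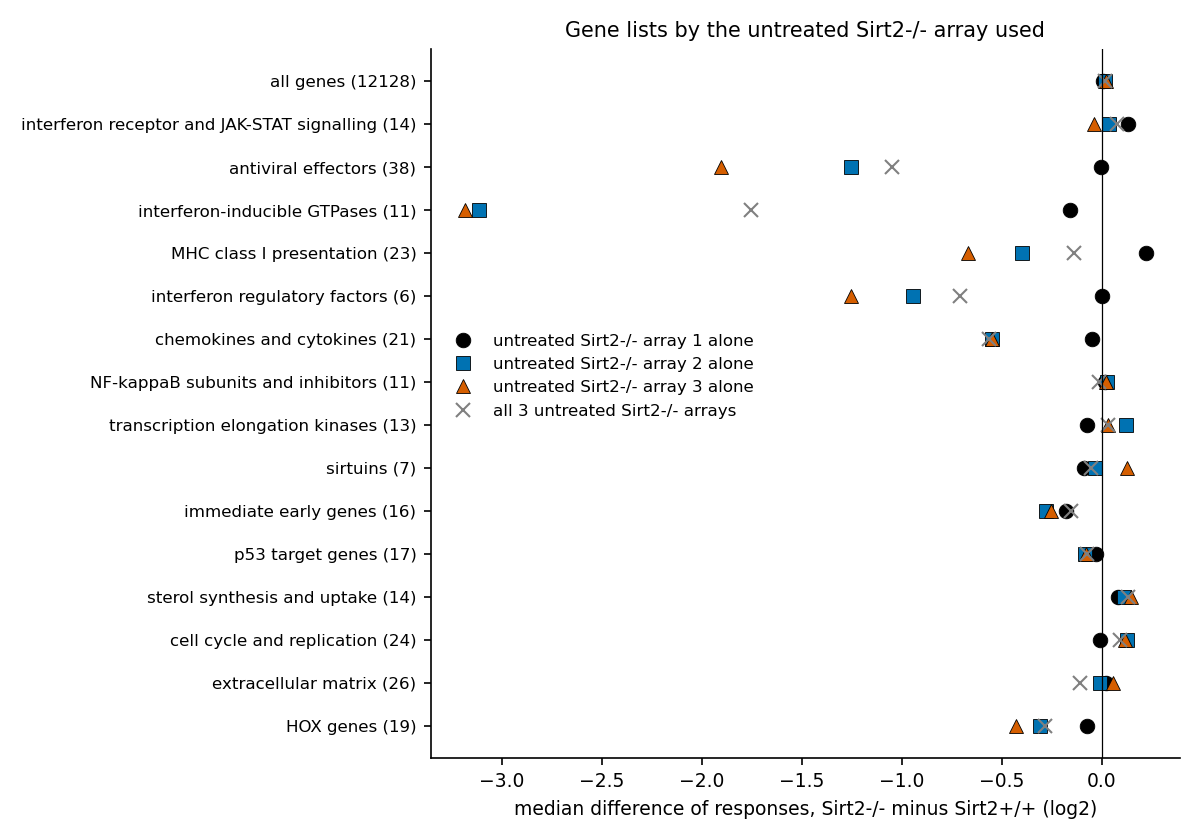
Median difference of responses (log2) of the genes of each list, with all 12 arrays and with untreated Sirt2-/- array 1, 2 or 3 as the only untreated Sirt2-/- array. The antiviral list lies at -0.00 with array 1, at -1.25 with array 2 and at -1.91 with array 3. Arrays 2 and 3 were set apart partly by the level of this list.

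Usp18, a protease that removes ISG15 and restrains receptor signalling, was among the antiviral genes, which did not all have the same pattern. It had 14.10, 14.13 and 13.93 in treated Sirt2-/- cells and 14.31, 14.27 and 14.42 in treated Sirt2+/+ cells. Untreated, it had 5.88, 12.33 and 12.04 in Sirt2-/- cells and 5.48, 6.08 and 5.94 in Sirt2+/+ cells, so that array 1 lay within the Sirt2+/+ range and arrays 2 and 3 far above it. For Usp18 the difference of responses was -4.53 ± 1.64 (limma adjusted p = 0.478), and -0.32 ± 0.26 without the 2 arrays (limma adjusted p = 1). Igtp, a GTPase active at vacuoles that hold pathogens, had -3.92 with all arrays and 0.22 without the 2 arrays, and Ifit3 had -4.04 and 0.25. Neither passed in either fit. A second Ifit3 probe had -3.71 with all arrays and -0.60 without the 2 arrays. A second Usp18 probe had -2.67 and -0.68. Ifit2, also an antiviral gene, had genotype differences of -1.69 when treated (limma adjusted p = 0.00146) and -0.07 when untreated. Its difference of responses was -1.62 with all arrays, which did not pass (limma adjusted p = 0.331), and -1.03 without the 2 arrays. The SE with all arrays was over 0.5 for 119 probes, against a median of 0.19 over all probes.

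Isg15, the ubiquitin-like protein that is joined to other proteins in the interferon response, was higher on all 3 untreated Sirt2-/- arrays. It had 8.04, 10.77 and 11.42 there and 5.82, 6.22 and 6.19 in untreated Sirt2+/+ cells. With IFNβ it had 13.45, 13.36 and 13.33 in Sirt2-/- cells and 13.22, 13.36 and 13.17 in Sirt2+/+ cells, which overlapped. Its difference of responses was -3.87 ± 0.82 with all arrays (limma adjusted p = 0.0713) and -1.83 ± 0.22 without the 2 arrays (limma adjusted p = 0.00328). The larger value thus did not pass, and the smaller one did. Gbp3, a guanylate-binding protein, had -3.58 (limma adjusted p = 0.166) and, without the 2 arrays, -1.30 (limma adjusted p = 0.0385), while a second Gbp3 probe had -0.45 there and did not pass (limma adjusted p = 0.819). Its levels, by the first probe, were 5.77, 8.91 and 9.45 on untreated Sirt2-/- arrays and 4.41, 4.67 and 4.47 on untreated Sirt2+/+ arrays.

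The level of the antiviral genes had helped to set untreated Sirt2-/- arrays 2 and 3 apart, so their positions there are a description. The position of each untreated Sirt2-/- array was read against the 3 untreated Sirt2+/+ arrays. Array 1 was above all 3 for 10 of the 38 antiviral genes (26.3%), against 42.5% of all genes. Array 2 was above them for 30 (78.9%, against 40.7% of all genes) and array 3 for 33 (86.8%, against 41.3%). In array 1, 4 antiviral genes were more than 1 log2 unit above the Sirt2+/+ mean, namely Oasl1 (2.26), Isg15 (1.96), Oasl2 (1.38) and Dtx3l (1.04). In the same array, Ifitm1 (-2.50), Ifitm3 (-2.20), Ifi47 (-2.01), Ifitm2 (-1.77) and Uba7 (-1.13) were more than 1 unit below it. Ifitm3, a membrane protein that blocks the entry of viruses, had 14.43, 13.97 and 14.20 in treated Sirt2-/- cells and 14.65, 14.60 and 14.62 in treated Sirt2+/+ cells. Untreated, it had 11.57, 12.38 and 12.96 in Sirt2-/- cells and 13.69, 13.91 and 13.70 in Sirt2+/+ cells, so the 3 Sirt2-/- arrays were all lower. The difference of responses was 1.04 ± 0.35 (limma adjusted p = 0.41) with all arrays and 1.77 without the 2 arrays (limma adjusted p = 0.00435). Ifitm1 of the same family had 1.06 (limma adjusted p = 0.504) and, without the 2 arrays, 1.99 (limma adjusted p = 0.00173). The other 2 Ifitm1 probes had -0.45 and -0.70 with all arrays and 0.93 and 0.11 without the 2 arrays, and passed in neither fit (limma adjusted p = 1 each without the 2 arrays).

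Of 21 chemokines and cytokines tested, 5 had a called smaller response in Sirt2-/- cells (Ccl8, Ccl11, Ccl12, Cxcl10 and Il6) and Ccl4 a called larger one, which did not pass without the 2 arrays (limma adjusted p = 0.0904). The median of the list was -0.57 with all arrays and -0.05 without the 2 arrays, where 4 were called. Ccl7, another monocyte chemokine, had 5.72, 9.05 and 9.30 on untreated Sirt2-/- arrays and 9.55, 10.38 and 9.64 on untreated Sirt2+/+ arrays. Its difference of responses was -1.08 with all arrays and 1.23 without the 2 arrays, and did not pass in either (limma adjusted p = 0.961 and 0.392).

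Of 14 receptor and JAK-STAT genes tested, a list that also holds Isg15, none was called with all arrays, and the median was 0.07. In this list 4 had an unadjusted p under 0.05, against 875 of all 12128 genes and unnamed probes. Without the 2 arrays Isg15 was called and the median was 0.13. Irf9, the DNA-binding subunit of ISGF3, had 11.16, 11.02 and 10.90 in treated Sirt2-/- cells and 10.56, 10.54 and 10.31 in treated Sirt2+/+ cells. For Irf9 the difference of responses was -0.42, with a 95% interval of -1.09 to 0.26 (limma adjusted p = 0.939), and 0.25 without the 2 arrays. Stat2 had -1.43 (95% interval -3.02 to 0.17) and 0.27 without the 2 arrays. Cdk9, the kinase of the elongation factor P-TEFb, had 0.03 with a 95% interval of -0.37 to 0.43, and -0.12 without the 2 arrays. It was higher in Sirt2-/- cells by 0.51 when treated and by 0.48 when untreated (limma adjusted p = 0.0058 and 0.0082). Among 23 genes of MHC class I presentation H2-Q6 was called, and the median was -0.14 with all arrays and 0.22 without the 2 arrays. Their median distance from the untreated Sirt2+/+ mean was 0.14, 0.90 and 1.03 on untreated Sirt2-/- arrays 1, 2 and 3. This shift is thus no separate result either. Of 11 NF-kappaB genes Nfkbiz was called, of 16 immediate early genes Atf3, and of 19 HOX genes Hoxd4; these 3 calls were lost without the 2 arrays (limma adjusted p = 0.243, 0.392 and 0.0716). None of 13 elongation kinase genes, 7 sirtuins, 17 p53 targets, 14 sterol genes, 24 cell cycle genes or 26 matrix genes was called by limma.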

How the data were processed

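Per the labels' protocols, each sample gave biotin-labelled cRNA from 150 ng of its RNA, which was read on an Illumina bead array of 1 colour. The authors deposited 1 linear intensity per probe and array, with no background subtracted. Per the file headers, a detection p-value stands beside each intensity. A deposited table of log2 values was checked against log2 of these intensities after quantile normalization and differed by at most 0.000639. Arrays detected 17091 to 18155 of 45281 probes, with median intensities of 111 to 119.9.

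The intensities were corrected with normexp from the detection p-values, raised by an offset of 16, quantile-normalized and put on the log2 scale (neqc, limma 3.58.1, R 4.3.3). A single gene symbol was found for 34885 of 45281 probes, several symbols for 18, and no symbol for 10378. Symbols come from the platform annotation, and 34807 were looked up in RefSeq, which changed 0.

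A mean per group was fitted with limma (8 residual degrees of freedom), 5 contrasts were tested two-sided, and p-values were adjusted by Benjamini-Hochberg over 17837 probes. The fit was tested on simulated data. For a gene undetected on all 3 arrays of a group, the fold is given as "at least", against the lowest level detected on each array. Lists take the brightest kept probe per gene. The number of arrays limits the precision. Deviations from the group means were correlated between samples of different groups. In the 18 same-numbered pairs r was -0.105 to 0.164, with 4 over 0.1 and a median of 0.040, against -0.004 for other pairs. By these deviations 8 of 12 arrays correlated best with an array of their own number. The correlations were low, and the replicate numbers were not taken as pairs in the main fit. They were used as a block in an alternative.

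By rule, the genes named are the 10 with the lowest and the 10 with the highest called difference of responses, with all arrays and among those also called without untreated Sirt2-/- arrays 2 and 3, the 5 with the largest difference in each class and direction, the 3 members of each list with the largest called difference, and a set of signalling and antiviral genes; not all are printed. Every other gene named was chosen after its values were seen. The lists, genes and tests were chosen with earlier results of these data known. Alternatives covered the offset, scaling, detection filter, probe choice, array weights, variance model, replicate block and each array left out.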

Additional observations from a re-analysis of the deposited data

Results flagged for a closer look

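The difference of responses is itself the test of whether the effect of IFNβ differs between genotypes, so each gene that passed it (limma adjusted p under 0.05) is listed here. A smaller response in Sirt2-/- cells was called for 54 probes, and a larger one for 18 probes. Genes that met the detection rule through 1 treated group alone, as named above, were favoured by that rule. Xdh and B3gnt5 likewise met it only through treated Sirt2+/+ cells. The called Grip1 probe met it only through untreated Sirt2+/+ cells, where it was high, which favoured a positive value. The called Pygl probe met it only through untreated Sirt2-/- and treated Sirt2+/+ cells, which favoured a negative value. The p-values of these genes do not allow for this.

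In 5 genes with a smaller response the genotype difference was called in untreated cells and not in treated ones: Cxcl10 (-4.95), Apol9b (-2.89), Apol9a (-2.74), Zfp296 (-1.11) and Nfkbiz (-0.90). Where it was called in treated cells and not in untreated ones, the values were -3.20 for Ifit1bl1 and for Ch25h, -2.95 for Ccrl2, -2.47 for Mndal, -2.36 for Ccl8 and for Pstpip1, -2.05 for Mpeg1 and -1.85 for Ifi207. They were -1.76 for Il6, -1.66 for Ccl11, -1.62 for Casp4, -1.51 for Gm18852, -1.36 for Lgi2, -1.27 for Map3k8, -1.16 for Nrap, a muscle-type anchoring protein, -1.02 for Ccl12, -0.95 for F8 and -0.90 for Gypc, a red cell membrane glycoprotein.

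Where the genotypes differed in both conditions, the values were -2.84 for Tgtp1, -2.62 for Enpp4, -2.27 for Osr2, -1.88 for Xdh (xanthine dehydrogenase), -1.73 for Gdnf, -1.67 for Hoxd4, -1.66 for Dhrs9, a retinol dehydrogenase, and -1.58 for Tlr3. Tuba8, an alpha tubulin, and Tril, an accessory protein of Toll-like receptors, had -1.44 each, and Mmp10 had -1.42. Rnf135, a ubiquitin ligase that acts on the RNA sensor RIG-I, had -1.35, the stress-induced transcription factor Atf3 -1.24, and Bid -1.23. B3gnt5, a glycosyltransferase, had -1.15, the nucleotide-sugar receptor P2ry14 -1.11, the glycogen phosphorylase Pygl -0.94 and the nucleotidase Nt5c3 -0.70. Dhrs9, Tril and B3gnt5 were detected on no Sirt2-/- array, so their responses there lay at background. Their differences of responses were as small as -0.74, -0.65 and -0.41 under the alternatives. P2ry14 was detected on 1 untreated Sirt2-/- array alone and Xdh on 1 treated Sirt2-/- array alone.

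A positive difference of responses was called for H2-Q8 (1.76), Il15ra (1.34) and Cables1 (1.30), with a genotype difference in treated cells alone. It was called for Diras2 (1.66) and the scaffold protein Grip1 (1.20) with one in untreated cells alone. With a difference in both, H2-Q6 had 1.64, Rprm 1.46, Gna14 1.25, the keratin Krt16 1.15, the integrin subunit Itgb6 1.11, the chemokine Ccl4 1.01 and Slc40a1 1.01. The replication licensing factor Cdc6 had 0.96, the small GTPase Rasl11b 0.86, the docking protein Dok1 0.76, and Ddit4l, an inhibitor of mTOR signalling, 0.74. By the called probes, Grip1, Gna14, Slc40a1, Rasl11b, Cdc6 and Ddit4l fell in Sirt2+/+ cells, with responses of -1.13, -1.13, -1.05, -0.89, -0.68 and -0.68. In Sirt2-/- cells their responses were 0.08, 0.11, -0.04, -0.03, 0.28 and 0.06, none of them called.

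Of these 57 genes, 20 had several tested probes, and in 18 of the 20 all probes had the same sign; all probes were called in 6 of the 20.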

How the results depend on the processing

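All 72 called probes kept their sign under each alternative in which they were tested (71 with a detection limit of 0.01 and 58 with 1 probe per gene). Apol9b, Casp4, Ccl8, Ccl11, Ccrl2, Enpp4, Gdnf, Ifit1bl1, Il6, Lgi2, Mndal, Mpeg1 and Pstpip1 were called under all 23. The numbers of calls moved more. Against 54 negative and 18 positive calls, with 7 in which the genotype difference was called only when untreated and 31 only when treated, array weights gave 106, 37, 23 and 48. These weights were 0.69, 1.88 and 1.17 for untreated Sirt2-/- arrays 1, 2 and 3. Without a detection filter the same numbers of calls were 29, 11, 3 and 20. With values of undetected probes set to their array's background, an alternative chosen after seeing the data, 37 were positive, 13 untreated only and 52 treated only. An offset of 50 gave 29 positive and 14 untreated only, the deposited log2 values 28 positive, and both median scaling and a trended, robust variance 15 untreated only. Without untreated Sirt2-/- arrays 2 and 3, 24 were negative.

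Leaving out 1 array at a time gave 36 to 191 negative, 11 to 23 positive, 4 to 60 untreated-only and 23 to 37 treated-only calls. Without untreated Sirt2-/- array 1 there were 191 negative and 60 untreated-only calls, and the highest of the other 11 leave-outs gave 50 negative. Positive calls were 11 without untreated Sirt2-/- array 2 or treated Sirt2+/+ array 1. Untreated-only calls were 4 without untreated Sirt2-/- array 2, treated Sirt2-/- array 3 or untreated Sirt2+/+ array 3. The cause of these shifts was not tested.

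The sign turned without untreated Sirt2-/- arrays 2 and 3 for Ccl2 (0.75), Ccl7 (1.23), Cdk9 (-0.12), Ifit3 (0.25), Igtp (0.22), Irf9 (0.25), Psmb8 (0.22), Psmb9 (0.40), Stat2 (0.27) and Tap1 (0.74), none called in either fit. Cdk9 also turned under median scaling (-0.014) and, among single arrays left out, ranged from -0.082 to 0.13, and Tap1 turned in the deposited values (0.021). Other probes of these genes were mixed. A second Ifit3 probe did not turn (-3.71 with all arrays and -0.60 without the 2 arrays), and a second Psmb8 probe was positive in both (0.45 and 0.67). Second probes of Ccl7 (-0.86 and 0.96) and Irf9 (-0.64 and 0.095) turned. With the brightest probe of the gene, Cdc6 had -0.047 and Pygl 0.10. The replicate number as a block gave 58 calls, 42 negative and 16 positive, all 58 among the 72. By deviations from the group means, 8 of 12 arrays correlated best with an array of their own number. A slide block was not run because the files name no slide. Genes near background have only bounds, which limits the precision of their differences.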

Other observations

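Without untreated Sirt2-/- arrays 2 and 3, 12 probes were called that were not called with all arrays. Besides Ifitm1, Ifitm3, Isg15 and Gbp3, they included genes with a larger response in Sirt2-/- cells. Rin2, a regulator of small GTPases, had 1.73 (limma adjusted p = 0.00281) and Tnfrsf11b, the decoy receptor osteoprotegerin, 1.74 (limma adjusted p = 0.0247). A Zfp365 probe had 1.62 (limma adjusted p = 0.00743), while the other 2 probes of the gene had -0.39 and 0.96 and did not pass, and Cnksr1, a scaffold of Ras signalling, 2.02 (limma adjusted p = 0.0325). Ifi205, of the Ifi200 family with its close copies, had 2.29 (limma adjusted p = 0.0178) by its brightest probe, and 2.52 and 1.41 by the other 2, of which the second did not pass. A second Rin2 probe had 1.28 and did not pass (limma adjusted p = 0.343). On untreated Sirt2-/- array 1, Rin2, Tnfrsf11b and Zfp365 differed by -2.05, -2.14 and -3.13 (log2) from the mean of untreated Sirt2+/+ cells. These genes were chosen after their values were seen.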
